A study of Mus musculus with 8 samples.

Results

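The 36 genes described here encode the enzymes and transporters of glycolysis and the best known genes induced by low oxygen. They were taken by name and measured in sorted mouse skin tumour cells with altered NR2F2, an orphan nuclear receptor (COUP-TFII) that acts as a transcription factor. Of the 36, 32 had a probe set (a group of array probes for 1 transcript) assigned to that gene alone, and all 32 entered the test among 13939 genes. Eno1, Gpi1 and P4ha1 had no such probe set in the annotation used here, and the probe set of Pgam1 is shared with a pseudogene, so these 4 are not analysed here. The 32 genes were read by 58 probe sets, and each gene is given by its brightest one.

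The samples were 8 Affymetrix mouse genome PM strip arrays of tumour cells sorted by flow cytometry for Epcam, an adhesion molecule of epithelia, 2 arrays in each of 4 groups. The groups were papilloma with NR2F2 overexpression (genotype NR2F2 GOF, gain of function), control papilloma (genotype NR2F2 WT), squamous cell carcinoma of K5CreER;NR2F2fl/fl mice (genotype NR2F2 KO) and control carcinoma without Cre (genotype NR2F2 WT). Papillomas are benign growths of the epidermis, and squamous cell carcinomas are malignant ones. K5CreER is a tamoxifen-dependent recombinase driven by the keratin 5 promoter, so deletion is limited to cells in which that promoter is active. The labels used here give neither the transgene behind the overexpression nor the age, the strain or how the tumours arose. They do not say whether control carcinomas carry the floxed alleles, nor whether replicate arrays stand for separate animals, so the p-values reflect the spread among arrays, which may be technical.

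Glycolysis breaks glucose down to pyruvate in the cytosol, and lactate dehydrogenase with a lactate exporter lets it run without oxygen. When oxygen is low, the prolyl hydroxylases of the EGLN family no longer mark the HIF alpha subunits for destruction, and HIF binds a short core motif, ACGTG or GCGTG, in the control regions of its target genes. Most glycolytic enzymes, several transporters and the hydroxylase genes Egln1 and Egln3 are such targets, and skin tumours are known to use glycolysis heavily.

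In GOF papilloma, 1 of the 32 genes passed the test, where 0.76% of all genes tested rose and 0.452% fell. It was Pfkl, the liver-type phosphofructokinase that catalyses the committed step of glycolysis, 2.25-fold higher. With Pfkl, 8 of the 32 genes were at least 1.5-fold higher in every pairing of a GOF with a control array (3.9% of all genes). The other 7 did not pass the test. They were the lactate exporter Slc16a3, the hexokinase Hk1, the aldolase Aldoc, lactate dehydrogenase Ldha, the oxygen sensor Egln3, the mitophagy receptor Bnip3 and the endoplasmic reticulum oxidase Ero1l. In KO carcinoma no gene of the group passed the test, where 0.0% of all genes rose and 0.0143% fell. The cell surface carbonic anhydrase Car9, 3.40-fold higher, was the 1 gene at least 1.5-fold higher in every pairing (1.42% of all genes). Hif1a mRNA itself, on its brightest probe set, differed little in both, with log2 differences of -0.01 in GOF papilloma and 0.13 in KO carcinoma.

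Because HIF binding to the core motif connects these genes, the promoters of the 6 genes with the largest differences past 1.5-fold in every array pair whose promoter holds the motif are shown first. Each runs 5′ to 3′ on the strand of its gene, from 250 bases before to 50 bases after the start site, with sequence and coordinates from RefSeq on GRCm38.p6. Capitals mark ACGTG or GCGTG, or either read on the opposite strand.
Slc16a3, chr11:120948817-120949116, plus strand: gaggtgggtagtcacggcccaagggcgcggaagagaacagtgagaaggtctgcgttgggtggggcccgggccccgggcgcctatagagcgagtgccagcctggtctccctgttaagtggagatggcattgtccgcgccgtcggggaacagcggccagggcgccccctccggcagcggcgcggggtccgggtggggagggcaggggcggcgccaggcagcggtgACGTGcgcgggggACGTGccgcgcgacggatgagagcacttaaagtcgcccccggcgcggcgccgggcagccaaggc
Car9, chr4:43506776-43507075, plus strand: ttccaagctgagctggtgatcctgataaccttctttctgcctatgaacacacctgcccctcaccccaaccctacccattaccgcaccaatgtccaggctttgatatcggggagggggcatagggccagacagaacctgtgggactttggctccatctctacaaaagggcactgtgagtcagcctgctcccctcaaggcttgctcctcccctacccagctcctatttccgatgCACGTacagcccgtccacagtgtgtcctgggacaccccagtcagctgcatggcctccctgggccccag
Aldoc, chr11:78322823-78323122, plus strand: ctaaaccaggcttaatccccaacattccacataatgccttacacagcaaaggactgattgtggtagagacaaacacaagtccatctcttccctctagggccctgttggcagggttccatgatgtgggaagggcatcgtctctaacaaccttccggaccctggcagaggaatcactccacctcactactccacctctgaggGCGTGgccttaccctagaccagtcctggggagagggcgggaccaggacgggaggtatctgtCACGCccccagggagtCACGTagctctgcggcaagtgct
Egln3, chr12:54203825-54204124, minus strand: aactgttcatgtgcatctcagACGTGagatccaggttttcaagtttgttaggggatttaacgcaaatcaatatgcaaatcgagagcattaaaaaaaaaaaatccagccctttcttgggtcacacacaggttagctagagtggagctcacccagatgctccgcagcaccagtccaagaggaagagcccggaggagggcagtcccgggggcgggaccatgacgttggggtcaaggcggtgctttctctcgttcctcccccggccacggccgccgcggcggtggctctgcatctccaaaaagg
Bnip3, chr7:138909457-138909756, minus strand: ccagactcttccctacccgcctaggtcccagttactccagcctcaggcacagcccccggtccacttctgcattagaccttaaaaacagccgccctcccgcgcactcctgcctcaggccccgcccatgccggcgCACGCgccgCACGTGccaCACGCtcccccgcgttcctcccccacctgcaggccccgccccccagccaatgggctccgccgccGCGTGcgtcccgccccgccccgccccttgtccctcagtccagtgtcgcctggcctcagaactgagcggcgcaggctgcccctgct
Pfkl, chr10:78009758-78010057, minus strand: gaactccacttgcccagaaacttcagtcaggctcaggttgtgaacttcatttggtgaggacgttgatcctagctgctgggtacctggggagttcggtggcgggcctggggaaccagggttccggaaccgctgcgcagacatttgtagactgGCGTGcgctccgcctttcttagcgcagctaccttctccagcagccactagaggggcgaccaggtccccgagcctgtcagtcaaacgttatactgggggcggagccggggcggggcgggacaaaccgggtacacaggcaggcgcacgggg

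The match nearest the start site began at -14 in Slc16a3 and at -18 in Car9, counted in bases from the start. Pfkl held 1 match, at -99, and Egln3 held 1, at -229. Bnip3 held 5 matches, among them a palindrome, CACGTG, that was counted once for each strand. Aldoc has 2 promoters in the table, and the one shown holds 3 matches. RefSeq promoters were matched to 30 of the 32 genes (41 promoters), with none in the table for Slc2a3 and Ndrg1. At least 1 match was found in 33 of the 41 promoters (80.5%), against 57.8% of the 14137 promoters of all genes tested and 43.8% of all promoters of the same length in the table. ACGTG was found in 61.0% of the group's promoters and in 23.8% of those of all genes tested. GCGTG was found in 53.7% and 46.5%. The group was listed by name and holds many known HIF targets, so a higher share comes with the list. It is not a result of these arrays. These are matches of letters in a 300-base window, on both strands, and say nothing of whether HIF was bound in these cells.

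All values below are deposited log2 intensities, and a log2 difference of 1 is a doubling. Tests used limma, a linear model with 1 mean per group and a spread shared over the 8 arrays, with p-values adjusted over all 13939 genes by the Benjamini-Hochberg method and a threshold of 0.05. With 2 arrays against 2, an exact permutation test cannot go below 0.333. Papilloma and carcinoma columns differ in scale (array medians of 3.12 to 3.16 and 5.08 to 5.15) and are treated as normalized separately, so no level is compared between tumour types. Each array's background is the brightest of 44 probe sets that target no mouse transcript, 3.09 to 3.33 on papilloma arrays and 4.95 to 5.01 on carcinoma arrays.

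The arrays carried their labels' genotype: Nr2f2 was at 11.43 and 11.47 in GOF papilloma, against 2.80 and 2.55, below background, in control papilloma, and at 4.77 and 4.996 in KO carcinoma against 7.93 and 8.14 in control carcinoma. Krt5 and Krt14, keratins of basal epidermal cells, lay between 12.02 and 12.75 on every array. Epcam, the sorting marker, fell by 1.53 in GOF papilloma (9.004 and 8.68, against 10.17 and 10.57 in control papilloma; limma adjusted p = 0.0372, and 0.0273 to 0.227 when 1 array was left out). Markers of other cell types also moved with the groups, and these arrays cannot tell more cells of a type from more RNA per cell. All 11 tested endothelial markers and 12 of 13 macrophage and monocyte markers were at least 1.5-fold higher in all GOF array pairs. Of those, 5 and 3 passed the test. In control papilloma 2 of the 11 and 5 of the 13, Lyz2 among them, were at or below background on both arrays. Control carcinoma replicate 2 stood apart from the other carcinoma arrays, with the highest mean of the macrophage, endothelial and fibroblast lists. What part any of these cells had in the results below was not tested.

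**Figure D1:**
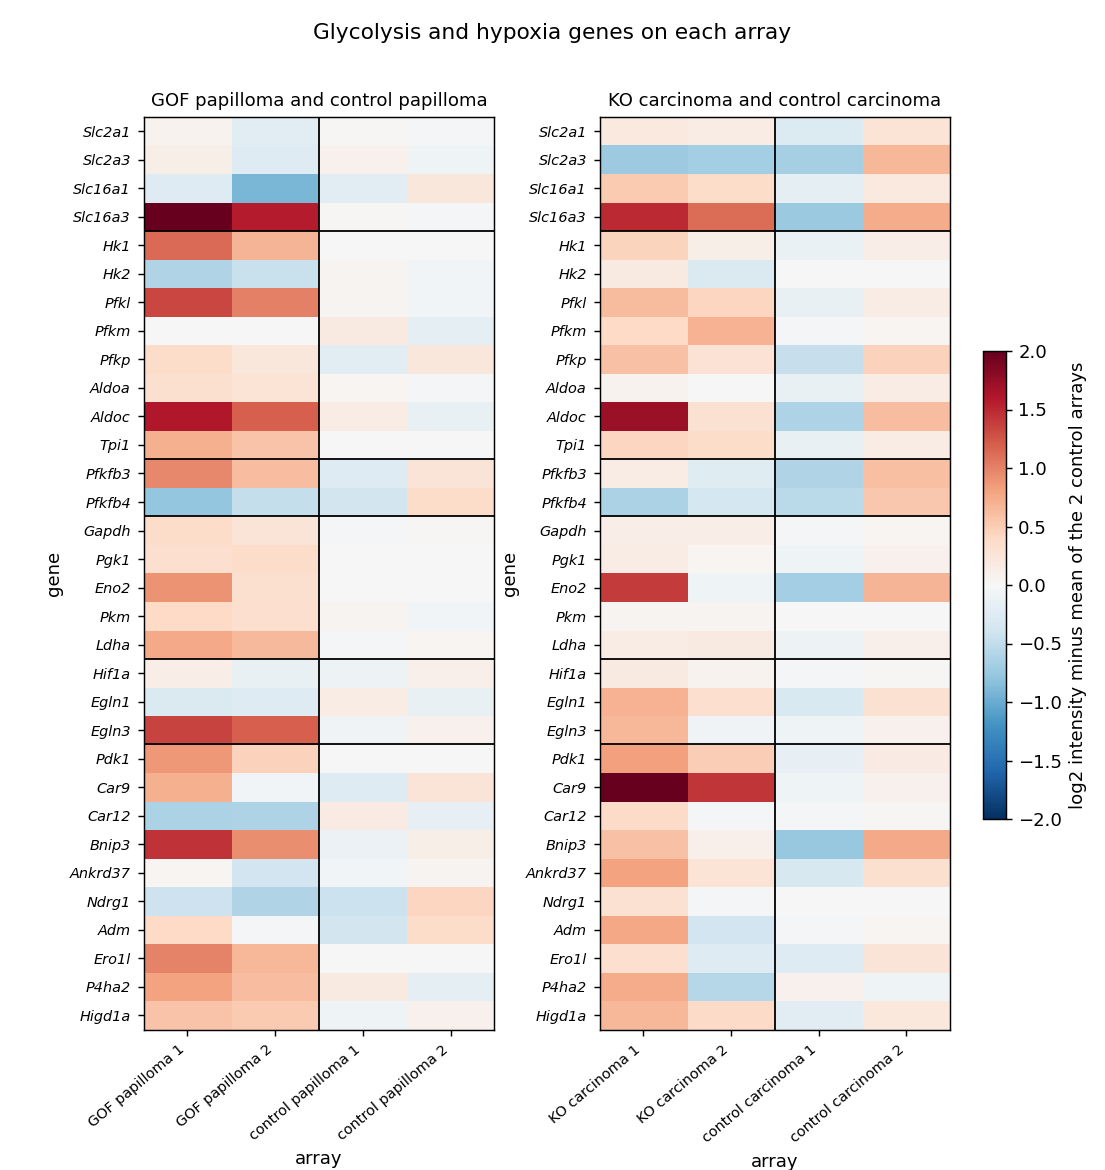
Log2 intensity of the 32 genes on each array minus the mean of the 2 control arrays of the same tumour type, from blue (lower) to red (higher), with papilloma arrays on the left and carcinoma arrays on the right. Horizontal lines separate transport, upper glycolysis, PFKFB regulators, lower glycolysis, oxygen sensing and other hypoxia-induced genes, and the scale ends at 2 on either side. Slc16a3 is darkest on both GOF arrays and Car9 on KO array 1, and in carcinoma the 2 control arrays differ in colour for many genes.

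Over the whole group, GOF papilloma gave 1 gene of 32 that rose where 0.76% of all genes tested rose, and 0 that fell where 0.452% of all genes fell. At an unadjusted limma p under 0.05 there were 16 (16.4% of all genes), 14 of them higher (9.94%), and 7 to 10 when 1 papilloma array was left out. The count of genes at least 1.5-fold higher in all 4 array pairs was 8 of 32, where 3.9% of all genes met that rule. The count at least 1.5-fold lower was 0, with 2.19% of all genes. For 19 of the 32, the dim Eno2 among them, both GOF values lay above both control values (27.3% of all genes), for 5 both lay below (21.3%), and for 8 the groups overlapped. The median log2 difference was 0.34, with 22 of 32 positive, against 0.02 and 53.6% positive over all genes. It was 0.32 with Eno2 and Slc2a3, which were at or below background, set to their bounds, and 0.53 without control papilloma replicate 2. The mean of the 32 genes on each array was 8.07 and 7.83 in GOF papilloma, against 7.53 and 7.62 in control papilloma. Members of a pathway are not independent of each other, so these counts describe the group and are not a test of it.

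KO carcinoma gave 0 of 32 past the limma threshold in either direction, where 0.0% of all genes rose and 0.0143% fell. At an unadjusted p under 0.05 there were 7 (13.8% of all genes), all higher (8.34%). Leaving out the first array of either group gave 3, and leaving out the second gave 12 for the controls and 10 for the KO. At least 1.5-fold higher in all array pairs was 1 of 32, with 1.42% of all genes, and at least 1.5-fold lower was 0, with 1.48% of all genes. Both KO values lay above both control values for 13 genes (23.8% of all genes) and below for 1 gene, Slc2a3 (19.1%), while 18 overlapped. The median log2 difference was 0.24 with 28 of 32 positive, against 0.01 and 51.0% positive over all genes. The array means of the 32 genes were 9.88 and 9.51 in KO carcinoma and 9.13 and 9.61 in control carcinoma, so the 2 groups overlapped.

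The carcinoma result rests heavily on which control array is used. Control carcinoma replicate 2 was above replicate 1 for 30 of the 32 genes, and the 2 arrays differed by at least 1.5-fold for 10. It is the array with the most macrophage, endothelial and fibroblast signal. KO replicate 1 was above KO replicate 2 for 27 of the 32. The mean over all genes tested was 6.96 on both control arrays, and 6.94 and 6.96 on the KO arrays. The shares of all genes that differed in these ways between arrays of a group were not counted. Without control replicate 2 the median log2 difference was 0.44, and 10 genes were at least 1.5-fold higher in all remaining pairs (3.6% of all genes). Without control replicate 1 the median was 0.14, and 1 gene met that rule (4.66% of all genes). Leaving out KO replicate 1 gave a median of 0.11 and 2 such genes (4.70% of all genes), and leaving out KO replicate 2 gave 0.44 and 7 (3.71%). Car9 was among them under each of these choices.

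**Figure D2:**
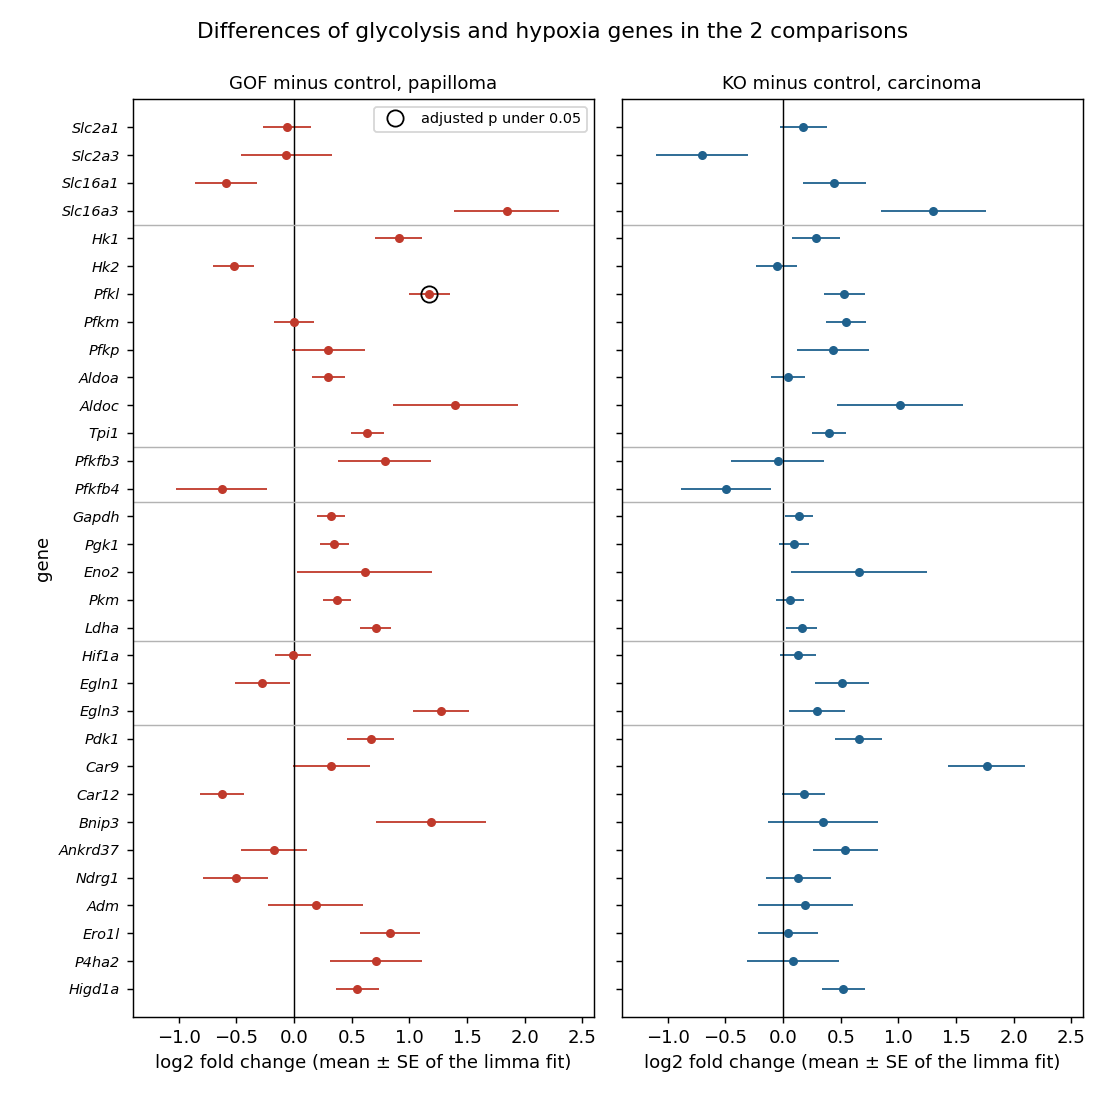
Log2 fold change of the 32 genes, GOF minus control papilloma on the left and KO minus control carcinoma on the right, as the mean and standard error (SE) of the limma fit with 2 arrays a group. The ring marks Pfkl in GOF papilloma, the 1 value past the adjusted threshold, and Car9 lies farthest to the right in carcinoma.

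The 4 transporters move glucose in and lactate across the plasma membrane. Slc16a3 (MCT4), which exports lactate, was at 8.41 and 7.86 in GOF papilloma, against 6.31 and 6.27 in control papilloma. Both GOF values stood far above the controls, with a log2 difference of 1.84 (SE 0.46, limma adjusted p = 0.116), a 3.59-fold higher level and the largest difference of the group. In carcinoma it was at 10.13 and 9.76 in the KO against 7.91 and 9.38 in the controls. The groups did not overlap, but the controls lay far apart, and the log2 difference of 1.30 (SE 0.46, limma adjusted p = 0.287) became 0.57 without control replicate 1 and 2.04 without control replicate 2.

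Slc16a1 (MCT1), which carries lactate and pyruvate in either direction, differed the opposite way in the 2 tumour types. It was at 8.005 and 7.35 in GOF papilloma, against 8.04 and 8.50 in control papilloma, a log2 difference of -0.59 (SE 0.27, limma adjusted p = 0.346) that ran from -0.91 to -0.26 when 1 papilloma array was left out. It was at 10.40 and 10.25 in KO carcinoma, against 9.69 and 10.07 in control carcinoma, a log2 difference of 0.45 (SE 0.27, limma adjusted p = 0.542), and 0.26 to 0.63 when 1 carcinoma array was left out. The groups did not overlap in either comparison, though GOF replicate 1 and control papilloma replicate 1 were nearly equal. The main glucose transporter of epidermis, Slc2a1 (GLUT1), overlapped between groups in both comparisons, with log2 differences of -0.06 and 0.18. Slc2a3 (GLUT3), best known from neurons and blood cells, was below background on all 4 papilloma arrays. In carcinoma it read 4.47 and 4.52 in the KO, below background, against 4.54 and 5.86 in the controls, where replicate 2 alone was above background. All 4 Slc2a3 probe sets showed the same high value on control carcinoma replicate 2, 5.83 to 6.03, and 3.86 to 4.54 on replicate 1. Against the background level the KO was at least 1.17-fold lower, with a limma adjusted p of 0.504, and without control replicate 2 the log2 difference was -0.04.

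The upper part of glycolysis, from glucose to the triose phosphates, held 8 measured genes, and 6 of them had both GOF values above both controls (27.3% of all genes). For 1 of the 6, the phosphofructokinase Pfkp, the gap was 0.003, and its second probe set overlapped between groups, with a log2 difference of -0.05. Pfkl was at 9.97 and 9.64 in GOF papilloma and at 8.69 and 8.58 in control papilloma. The lowest GOF value lay 0.95 above the highest control, and the log2 difference was 1.17 (SE 0.18, limma adjusted p = 0.0440). In carcinoma Pfkl was at 11.35 and 11.15 in the KO, against 10.58 and 10.86 in the controls, again without overlap, with a log2 difference of 0.53 (SE 0.18, limma adjusted p = 0.273). Of its 3 probe sets, the brightest gave these values. The next brightest read 9.98 and 9.69 in GOF papilloma against 8.66 and 8.50 in control papilloma, a log2 difference of 1.26, and it differed by 0.51 in carcinoma. The dimmest lay near background, at 3.13 and 3.004 in GOF papilloma and 3.15 and 3.20 in control papilloma, and differed by -0.11 and 0.08. The call for Pfkl is close to the threshold: the adjusted p was 0.0504 with no filter on dim probe sets and 0.0603 with the papilloma arrays fitted alone. Leaving out 1 papilloma array at a time gave 0.0866 to 0.254, and log2 differences of 1.01 to 1.34.

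The 2 hexokinases, which trap glucose in the cell by phosphorylation, went opposite ways in GOF papilloma. Hk1 was at 7.77 and 7.31 in GOF papilloma, against 6.62 and 6.65 in control papilloma. The log2 difference was 0.91 (SE 0.21, limma adjusted p = 0.0993). The second Hk1 probe set differed by 0.66, and its smallest difference between a GOF and a control array was 0.38, short of 1.5-fold. Hk2, the inducible form, was at 8.58 and 8.73 in GOF papilloma and at 9.23 and 9.13 in control papilloma, a log2 difference of -0.52 (SE 0.18, limma adjusted p = 0.220). Neither pair of groups overlapped. In carcinoma the difference was 0.29 for Hk1 and -0.06 for Hk2, with overlapping groups. Hk2 there was at 10.07 and 9.59 in the KO, on either side of 9.89 and 9.88 in the controls.

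Aldoc, the aldolase isoform of brain, was at 5.59 and 5.19 in GOF papilloma and at 4.14 and 3.84 in control papilloma, a log2 difference of 1.40 (SE 0.54, limma adjusted p = 0.270). Its KO values of 8.32 and 6.91 lay around and above control values of 5.99 and 7.22. Both carcinoma groups spread widely, and the difference of 1.01 (SE 0.54) became 0.31 to 1.72 when 1 carcinoma array was left out. Its second probe set, at or near background in papilloma, differed by -0.05 in GOF papilloma. Aldoa, the muscle and general isoform, differed by 0.30 in GOF papilloma and 0.04 in KO carcinoma. Tpi1, which interconverts the triose phosphates, was higher without overlap in both, by 0.64 (SE 0.15, limma adjusted p = 0.0998) and 0.40 (SE 0.15). The other phosphofructokinase subunits, Pfkm of muscle and Pfkp of platelets, differed by 0.00 and 0.30 in GOF papilloma and by 0.54 and 0.43 in KO carcinoma.

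Pfkfb3 and Pfkfb4 are bifunctional enzymes that set the level of an allosteric activator of phosphofructokinase. Pfkfb3, mainly a kinase, was at 5.48 and 5.14 in GOF papilloma and 4.27 and 4.78 in control papilloma. The log2 difference was 0.79 (SE 0.40, limma adjusted p = 0.398). The second Pfkfb3 probe set, near background in papilloma, differed by 0.14 there with overlapping groups. Pfkfb4 was at 3.86 and 4.16 in GOF papilloma and 4.28 and 4.997 in control papilloma, a log2 difference of -0.63 (SE 0.39, limma adjusted p = 0.490), and -0.99 to -0.27 when 1 papilloma array was left out. On the brightest probe sets the groups did not overlap for either gene in papilloma and overlapped for both in carcinoma. There Pfkfb3 was at 8.16 and 7.77 in the KO against 7.40 and 8.62 in the controls. Pfkfb4 was at 5.996 and 6.28 in the KO against 6.09 and 7.18 in the controls. For both genes control carcinoma replicate 2 gave the highest of the 4 carcinoma values.

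In the lower part of the pathway Gapdh, Pgk1, Pkm and Ldha were higher in GOF papilloma without overlap, with log2 differences of 0.32 to 0.71. Ldha, which reduces pyruvate to lactate, had the largest, at 11.54 and 11.43 in GOF papilloma and 10.74 and 10.81 in control papilloma. The log2 difference was 0.71 (SE 0.13, limma adjusted p = 0.0655), 1.63-fold. Gapdh differed by 0.32, the phosphoglycerate kinase Pgk1 by 0.35 (0.74 on its other probe set) and the pyruvate kinase Pkm by 0.37, each without overlap of the groups. Eno2, the neuronal enolase, was below background on both control papilloma arrays and on 1 of the GOF arrays, so no fold is given for its values of 3.35 and 2.78 in GOF papilloma and 2.44 and 2.45 in control papilloma. In carcinoma Gapdh, Pgk1, Pkm and Ldha differed by 0.06 to 0.16. Eno2 there had KO values of 6.20 and 4.72 and control values of 4.12 and 5.49, which overlapped, with 1 array of each group below background. Ldha was at 12.49 and 12.51 in KO carcinoma against 12.23 and 12.44 in control carcinoma, a difference of 0.16 (SE 0.13, limma adjusted p = 0.684).

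The 3 oxygen-sensing genes encode the HIF alpha subunit and the hydroxylases that mark it. Egln3 (PHD3) was at 7.90 and 7.73 in GOF papilloma, against 6.47 and 6.62 in control papilloma. All GOF values were more than 1 log2 unit above all control values, and the log2 difference was 1.27 (SE 0.24, limma adjusted p = 0.0668), 2.42-fold. Its second probe set differed by 0.72. In carcinoma Egln3 was at 10.33 and 9.60 in the KO and at 9.58 and 9.76 in the controls, which overlapped. Egln1 (PHD2), the main HIF hydroxylase in most cells, was at 8.88 and 8.92 in GOF papilloma and 9.32 and 9.03 in control papilloma, a log2 difference of -0.27 (SE 0.24). In carcinoma it was at 10.29 and 9.93 in the KO and 9.30 and 9.90 in the controls, a log2 difference of 0.51 (SE 0.24, limma adjusted p = 0.414). Its second probe set differed by 0.13 in GOF papilloma and 0.56 in KO carcinoma, so the papilloma direction was not shared by both. Hif1a was at 9.27 and 8.98 in GOF papilloma and 9.02 and 9.24 in control papilloma. In carcinoma it was at 10.725 and 10.617 in the KO and 10.522 and 10.566 in the controls, without overlap. Its second probe set was dim, below background on both control papilloma arrays and near it in control carcinoma. That probe set was higher without overlap in both comparisons, with log2 differences of 0.42 in GOF papilloma and 0.36 in KO carcinoma. HIF1A is regulated mainly through protein stability, which these arrays do not measure.

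**Figure D3:**
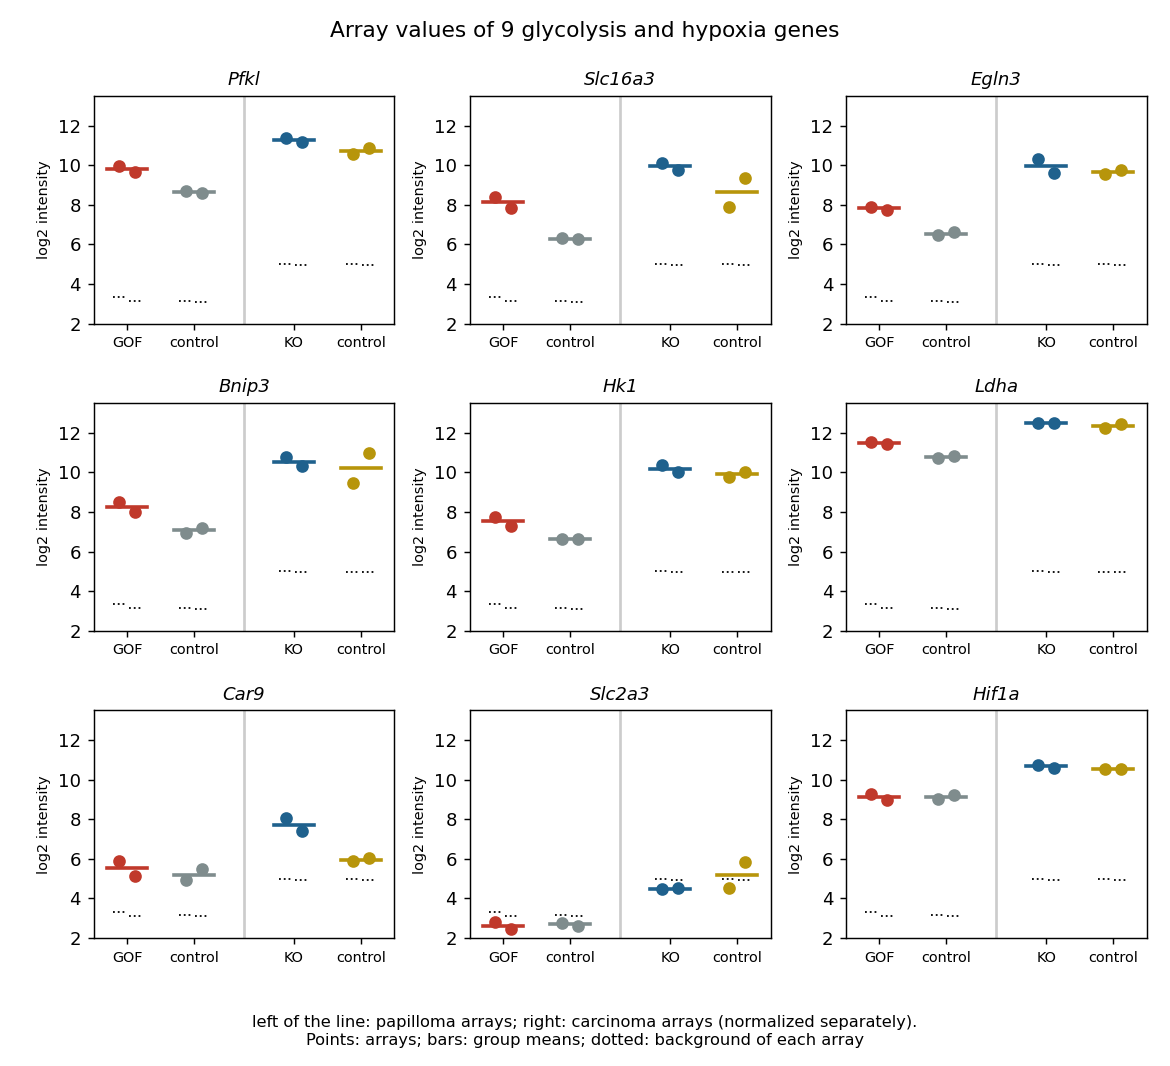
Log2 intensity of 9 genes on each array (points) with the group mean (bar) and each array's background (dotted), papilloma left of the vertical line and carcinoma right of it. In papilloma both GOF points of Pfkl, Slc16a3, Egln3, Bnip3, Hk1 and Ldha lie above both control points, and in carcinoma Car9 shows the widest gap between KO and control.

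The remaining 10 measured genes are induced by low oxygen in many cell types and serve varied roles. Car9, which hydrates carbon dioxide at the cell surface and helps export acid, was at 8.06 and 7.40 in KO carcinoma and 5.89 and 6.05 in control carcinoma. The lower KO value lay 1.35 above the higher control. The log2 difference was 1.77 (SE 0.34, limma adjusted p = 0.130), 3.40-fold, and larger than that of 99.97% of all genes tested. In GOF papilloma Car9 was at 5.91 and 5.15, against 4.94 and 5.47 in control papilloma, with overlapping values and a log2 difference of 0.32 (SE 0.34). The difference between the 2 effects was -1.44 (SE 0.47, limma adjusted p = 0.263). Car12, a second cell surface carbonic anhydrase, was at 9.41 and 9.42 in GOF papilloma and 10.21 and 9.87 in control papilloma, a log2 difference of -0.62 (SE 0.19, limma adjusted p = 0.171). In carcinoma it was at 10.20 and 9.79 in the KO and 9.79 and 9.84 in the controls. A dimmer Car12 probe set was at 6.93 and 7.01 in KO carcinoma and 6.22 and 6.31 in control carcinoma, a log2 difference of 0.70, so the 2 probe sets differed there.

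Bnip3, a mitochondrial outer membrane protein that promotes removal of mitochondria, was at 8.51 and 8.004 in GOF papilloma and 6.96 and 7.19 in control papilloma. The groups stood apart, with a log2 difference of 1.19 (SE 0.48, limma adjusted p = 0.285). In carcinoma its KO values of 10.79 and 10.31 lay between control values of 9.45 and 10.97. Ero1l, an oxidase of protein folding listed as Ero1a in the current annotation, was at 8.45 and 8.11 in GOF papilloma and 7.45 and 7.44 in control papilloma, a log2 difference of 0.83 (SE 0.26, limma adjusted p = 0.183). Its 3 probe sets gave 0.83 to 0.91 in GOF papilloma and 0.00 to 0.11 in KO carcinoma. In carcinoma the KO values of 10.53 and 9.94 and the control values of 9.93 and 10.44 overlapped.

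Pdk1, which restrains the oxidation of pyruvate in mitochondria, and the mitochondrial protein Higd1a were higher without overlap in both comparisons. Pdk1 was at 7.92 and 7.52 in GOF papilloma against 7.07 and 7.04 in control papilloma, and at 9.25 and 8.92 in KO carcinoma against 8.26 and 8.60 in control carcinoma. Its log2 difference was 0.66 in each (limma adjusted p = 0.179 and 0.246). Higd1a differed by 0.55 and 0.52 (limma adjusted p = 0.214 and 0.293). Dimmer probe sets gave smaller values in GOF papilloma, 0.08 and 0.36 for Pdk1 and -0.10 and 0.26 for Higd1a. In KO carcinoma they gave 0.15, with overlapping groups, and 0.57 for Pdk1, and 0.49 and 0.52, both with overlapping groups, for Higd1a. The collagen prolyl hydroxylase subunit P4ha2 differed by 0.71 in GOF papilloma without overlap and by 0.08 in KO carcinoma. Adm, which encodes the vasoactive peptide adrenomedullin, differed by 0.19 in both, Ankrd37 by -0.17 and 0.54, and Ndrg1 by -0.51 and 0.13, all with overlapping groups.

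The design sets a gain of NR2F2 beside its loss, in different tumour types and with separate control arrays, and the group was read across both comparisons. Of the 32 genes, 21 were positive in both, where 28.3% of all genes were. For 8 genes both values of the altered group exceeded both control values in each comparison (7.4% of all genes): Slc16a3, Pfkl, Tpi1, Gapdh, Pkm, Ldha, Pdk1 and Higd1a. At least 1.5-fold higher in all pairs of both comparisons was 0 of 32, with 0.108% of all genes. Slc2a3, Hk2 and Pfkfb4 were negative in both. Slc2a3 was below background on all papilloma arrays, so its sign there gives no direction. For Hk2 and Pfkfb4 the carcinoma groups overlapped. Pfkfb3 was the 1 gene positive in GOF papilloma and negative in KO carcinoma. The 7 that were negative in GOF papilloma and positive in KO carcinoma were Slc2a1, Slc16a1, Hif1a, Egln1, Car12, Ankrd37 and Ndrg1, and of these Slc16a1 and Egln1 did not overlap in either comparison.

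The difference between the 2 effects was tested directly, and 0 of 32 passed the adjusted limma threshold, where 0.0789% of all genes did. At an unadjusted p under 0.05 there were 6 (14.2% of all genes), and 2 without GOF replicate 1 or 3 without control papilloma replicate 1. The count of 6 of 32 is close to the share of all genes, so these genes are listed as a description only. The GOF effect was the more positive for Pfkl (by 0.64), Ldha (by 0.54) and Egln3 (by 0.98). The KO effect was the more positive for Car9, Slc16a1 and Car12, with differences of -1.44, -1.03 and -0.80 (GOF effect minus KO effect).

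**Figure D4:**
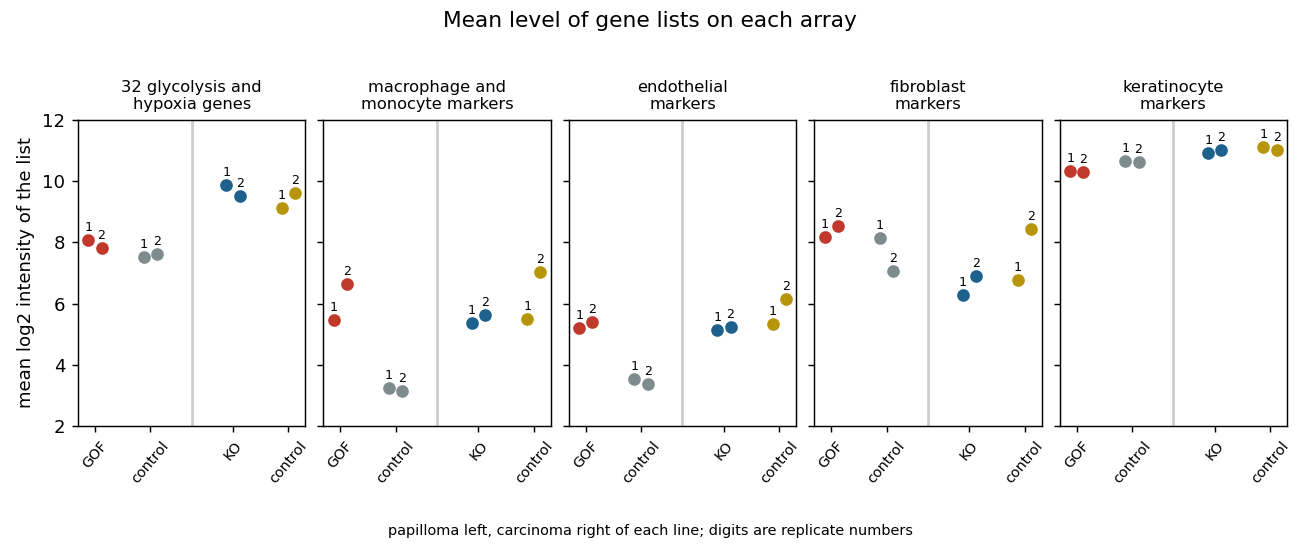
Mean log2 intensity of the 32 genes and of 4 marker lists on each array, numbered by replicate, papilloma left and carcinoma right of each line. Macrophage and endothelial means are higher on both GOF arrays than on both control papilloma arrays, and control carcinoma 2 has the highest mean of the macrophage, endothelial and fibroblast lists among carcinoma arrays.

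The levels of other cell types' markers are given here array by array. The macrophage mean was 5.48 on GOF replicate 1 and 6.64 on GOF replicate 2, against 3.24 and 3.15 in control papilloma. The 8 genes at least 1.5-fold higher in GOF papilloma were all higher on GOF replicate 1 than on GOF replicate 2, as were 26 of all 32 measured genes. The mean over all genes tested was 5.08 on GOF replicate 1 and 5.05 on GOF replicate 2. The share of all genes higher on GOF replicate 1 was not counted, and a link with the macrophage level was not tested. The endothelial mean was 5.21 and 5.41 in GOF papilloma and 3.53 and 3.37 in control papilloma. The fibroblast mean was 8.18 and 8.53 in GOF papilloma and 8.14 and 7.06 in control papilloma, and the keratinocyte mean 10.32 and 10.29 against 10.67 and 10.64.

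In carcinoma the macrophage mean was 5.37 and 5.64 in the KO and 5.51 and 7.02 in the controls. The endothelial mean was 5.13 and 5.25 in the KO against 5.34 and 6.15 in the controls, and the fibroblast mean 6.28 and 6.90 against 6.77 and 8.44. The keratinocyte mean was 10.94 and 11.01 in the KO and 11.11 and 11.03 in the controls. The T cell list (7 tested) differed by a median of 0.01 in GOF papilloma and -0.23 in KO carcinoma. The 2 erythroid genes tested averaged 8.22 and 6.73 in the KO against 6.28 and 8.39 in the controls. In each carcinoma group the higher array was also the higher one for most glycolysis and hypoxia genes, and a link was not tested. The erythroid means were 4.26 and 3.78 in GOF papilloma against 3.76 and 4.27 in control papilloma, with 1 of the 2 genes at or below background on all papilloma arrays. As a sign of RNA quality, the 3′ minus 5′ difference of the Gapdh control probe sets was 0.09 and 0.12 in GOF papilloma against 0.10 and 0.17 in control papilloma, and -0.09 and -0.12 in KO carcinoma against -0.10 and -0.07 in control carcinoma. For the beta-actin control probe sets it was -0.62 and -0.57 in GOF papilloma against -0.52 and -0.64 in control papilloma. In carcinoma the beta-actin difference was -0.21 and -0.28 in the KO against -0.15 and -0.20 in the controls, without overlap.

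Related genes outside the group were taken from lists chosen along with it. Of 25 further glycolysis genes tested, 0 passed the limma threshold in either comparison, with 5 at an unadjusted p under 0.05 in GOF papilloma and 4 in KO carcinoma, where 16.4% and 13.8% of all genes were. Their median log2 differences were -0.06 and 0.03. The lactate dehydrogenase B subunit Ldhb differed most in GOF papilloma, by 1.10 (SE 0.69), and Bpgm, which makes bisphosphoglycerate, by 0.93 (SE 0.32). Slc2a9 was at -0.64 there, and Pck2, below background on both GOF arrays, was at least 1.44-fold lower. In KO carcinoma Slc2a9, a urate transporter, differed by 1.35 (SE 0.51) and Ldhb by 0.62, and the lowest were Eno3 (-0.62) and Pfkfb2 (-0.57).

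Of 33 further hypoxia genes, 1 rose in GOF papilloma (0.76% of all genes) and 0 passed in KO carcinoma. At an unadjusted p under 0.05 there were 8 and 7, where 16.4% and 13.8% of all genes were. The 1 was Stc1, the secreted glycoprotein stanniocalcin, at 4.71 and 4.85 against 3.24 and 3.44 in control papilloma (backgrounds 3.16 and 3.09). Its log2 difference was 1.44 (SE 0.23, limma adjusted p = 0.0456). When 1 array was left out it was 1.34 to 1.55, and not past the threshold in every such fit. In KO carcinoma the Stc1 difference ran from -0.62 to 0.06 when 1 array was left out. The adenylate kinase Ak4 differed by 1.37 (SE 0.46, limma adjusted p = 0.212) in GOF papilloma and by 1.36 (SE 0.46, limma adjusted p = 0.276) in KO carcinoma, at least 1.5-fold in all array pairs of both. The transferrin receptor Tfrc differed by 1.34 (SE 0.24, limma adjusted p = 0.122) in KO carcinoma and 0.53 in GOF papilloma. The lowest in GOF papilloma were Angptl4 (-1.06) and Ddit4 (-0.75), and the lowest in KO carcinoma were the collagen cross-linking enzyme Lox (-1.26) and the HIF alpha subunit Epas1 (-0.90). The medians of the list were 0.06 in GOF papilloma and -0.12 in KO carcinoma, where those of all genes were 0.02 and 0.01.

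The pentose phosphate pathway, which branches off glycolysis to make NADPH, had 7 genes tested with medians of 0.00 in GOF papilloma and -0.02 in KO carcinoma. The tricarboxylic acid cycle oxidises pyruvate carbon in mitochondria, and its list also holds cytosolic enzyme forms, Idh1 among them. That list had 19 genes tested with medians of 0.03 in GOF papilloma and 0.26 in KO carcinoma. In KO carcinoma 18 of the 19 were positive. For 13 both KO values lay above both control values (23.8% of all genes) and for 1 below (19.1%), with Suclg2 the highest at 0.62 and Idh1 the lowest at -0.43. Of the genes of both lists, 0 passed the limma threshold in either comparison. At an unadjusted p under 0.05 there were 3 of the cycle list and 2 of the pentose phosphate genes in GOF papilloma (16.4% of all genes), and 2 and 0 in KO carcinoma (13.8%).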

How the data were processed

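The authors deposited log2 intensities of 45141 probe sets, normalized by RMA per the labels' protocols, and the submitters' processing notes name RMA and affy without versions. Papilloma and carcinoma columns were treated as normalized separately because of their scale. Of the probe sets, 104 were Affymetrix controls, 28898 had 1 gene symbol, 551 several and 15588 none. Single-gene probe sets were kept where 2 or more of the 8 arrays lay above 4.23, the median over the whole table, and the brightest per gene was used. Symbols were updated through Entrez numbers (28689 matched) to RefSeq on GRCm38.p6, used for names and promoters.

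The test was lmFit and eBayes of limma 3.58.1, run in R 4.3.3 (4 residual and 2.67 prior degrees of freedom), and the code was tested on simulated data. The 36 genes, the other lists, the marker lists and the rules were chosen with earlier results of these data known. Array values are given for genes that passed the test, differed at least 1.5-fold in all array pairs, or were among the 4 highest or lowest of the group in a comparison. Hif1a, Egln1 and Pdk1 were named after their values were seen. Where neither array of the dimmer group exceeded background, the fold is a lower bound, with array values under background raised to it in that group. In all, 19 alternative settings were run. Arrays of a group correlated at 0.980 to 0.991 over all probe sets. Precision is limited by having 2 arrays a group.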

Additional observations from a re-analysis of the deposited data

Results flagged for a closer look

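Slc16a1 and Egln1 drew attention because their differences ran opposite ways in the 2 comparisons on all arrays. The log2 difference of Slc16a1 was -0.59 in GOF papilloma and 0.45 in KO carcinoma, and that of Egln1 was -0.27 and 0.51. Tested directly with limma, the difference between the 2 effects had an adjusted p of 0.308 for Slc16a1 and 0.360 for Egln1, so neither passed. Leaving out 1 array gave -0.91 to -0.26 and 0.26 to 0.63 for Slc16a1, and -0.42 to -0.13 and 0.21 to 0.81 for Egln1. The second Egln1 probe set was 0.13 in GOF papilloma, and the second Slc16a1 probe set lay at or near background on the papilloma arrays and below it on the carcinoma arrays, so it gives no direction.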

How the results depend on the processing

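Only Pfkl in GOF papilloma passed the test in the setting reported, and the count of genes of the group past the threshold there was 0 with no filter, 0 with the mean of a gene's probe sets, 2 with a trended and robust prior (Ldha and Pfkl), 2 with the papilloma arrays alone (Egln3 and Slc16a3) and 0 to 2 without 1 array. Replicate numbers are shared between groups. With the replicate number as a block the count was 0 and the adjusted p of Pfkl 0.100. Deviations of same-numbered arrays correlated at 0.00179 in papilloma and 0.125 in carcinoma. Genes at least 1.5-fold higher in GOF papilloma numbered 5 with the mean of probe sets (3.39% of all genes). Without 1 papilloma array they numbered 8 to 13, where 5.62% to 9.30% of all genes met that rule, and lower 0 to 2. In KO carcinoma 0 passed under every setting with 2 arrays a group. Without 1 carcinoma array 1 to 10 were at least 1.5-fold higher, where 3.60% to 4.70% of all genes were, and 0 to 2 lower. The rule is easier to meet with fewer array pairs. The median difference between the effects (0.10) ran from -0.16 to 0.33 without 1 array. Without 1 array the KO difference ran from -0.085 to 1.40 for Eno2, -0.65 to 0.56 for Pfkfb3, -1.04 to 0.045 for Pfkfb4 and -0.29 to 0.18 for Hk2, and the cause was not tested. Of the values of single named genes under the alternatives, 335 kept direction and side of the threshold, 6 reversed, 7 came to pass it and 10 no longer did. Over all genes, GOF papilloma called 169, against 115 with no filter, 3 with the block and 1 to 297 without 1 array. KO carcinoma called 2, against 32 with the trended prior, 0 with the block and 0 to 122 without 1 array. The difference between the effects called 11, against 41 with the filter set within each tumour type, 68 with the trended prior, 3 with the block and 1 to 274 without 1 array.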
